A study of Mus musculus with 4 samples.

Results

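The genes of the mitochondrial respiratory chain were followed in 4 samples of adult mouse ureter. They were chosen by gene symbol alone: Nduf genes of series a, b, c, s and v for complex I, Sdha to Sdhd for complex II, Uqcr genes and Cyc1 for complex III, Cox4 to Cox8 genes for complex IV, Atp5 genes for ATP synthase, and Cycs for cytochrome c. The rule found 82 of 18193 named genes, measured by 168 of 45037 probe sets. These were 34 genes of complex I, 4 of complex II, 9 of complex III, 17 of complex IV, 17 of ATP synthase and 1 for cytochrome c. Ndufs6, Ndufa11 and Cox7b are not analysed here.

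The mice were adult males (Theiler stage 28) on the FVB/N strain, and all carried the SMGA/EGFP transgene, a reporter of smooth muscle gamma actin (Actg2). The green signal guided the dissection between kidney and bladder, so that the samples hold whole ureter wall and not sorted muscle cells. The 4 unpooled samples form 1 group and are called replicates 1 to 4, in an order with no meaning, and no control group was compared. Whether they come from separate animals is not in the labels, so p-values measure only the spread between these samples, which may be technical.

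The respiratory chain sits in the inner mitochondrial membrane. Complexes I and II pass electrons to ubiquinone, complex III passes them to cytochrome c, and complex IV hands them to oxygen. Complexes I, III and IV pump protons, and ATP synthase uses the gradient to make ATP. Most subunits are encoded in the nucleus, and all genes followed here are nuclear. No gene encoded in mitochondrial DNA was found by symbol, so those subunits were not measured here. Several subunits of complex IV come in isoforms: Cox6a2, Cox7a1 and Cox8b belong to heart and skeletal muscle, Cox4i2 is best known from lung, and Cox6b2, Cox7b2 and Cox8c from testis, while Cox4i1, Cox6a1, Cox6b1, Cox7a2 and Cox8a are widespread.

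Levels are log2(intensity + 16), where 16 is a pseudocount that compresses differences among dim probe sets. Where a gene had several probe sets, the one with the highest mean gave its level. Levels of different probe sets were not set against each other, since probes differ in brightness, and only differences between samples within a probe set were compared. Background was set on each array from 87 probe sets for chemosensory receptors, whose 95th percentile was 7.246, 6.991, 7.564 and 7.357 in replicates 1 to 4. Markers of the ureter wall were present: 9 of 10 contractile smooth muscle genes and 8 of 10 urothelial genes were above background, and Actg2, the gene of the reporter, had 11.08, 13.30, 11.64 and 11.63. RNA quality differed between arrays, with a 3' to 5' signal ratio of Gapdh between 18.77 and 36.94 and of Actb between 4.426 and 19.8. Replicate 3 stood apart in skeletal muscle genes, as described below. The count above background, the deviations of the other samples, the isoform differences and the SDs are also given without it.

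Promoter sequences of Cox8b, Cox8a, Cox7a1, Cox7a2 and Cox6a1, from the isoform pairs on which the results turn, are shown first. They were taken from RefSeq (build GRCm38.p6, the C57BL/6J reference and not the FVB/N strain) and run from 250 bases before to 50 bases after the annotated start, on the strand of the gene. Capitals mark matches, on either strand, to 6 motifs: GCGCA and GCGC with any 1 base between them for nuclear respiratory factor 1 (NRF1), CCGGAAG for GA-binding protein and other Ets factors, AAGGTCA for estrogen-related receptors, CAGCTG for the myogenic type of E-box, CTA and TAG with any 4 bases between them for MEF2 factors, and the TATA box TATAAA.
Cox8b (chr7:140900397-140900696, - strand): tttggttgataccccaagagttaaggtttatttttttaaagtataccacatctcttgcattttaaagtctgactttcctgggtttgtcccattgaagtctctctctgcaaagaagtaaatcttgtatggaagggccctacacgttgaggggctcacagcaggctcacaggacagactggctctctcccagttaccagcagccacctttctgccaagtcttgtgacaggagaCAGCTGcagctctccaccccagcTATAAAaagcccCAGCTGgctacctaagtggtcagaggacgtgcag
Cox8a (chr19:7217567-7217866, - strand): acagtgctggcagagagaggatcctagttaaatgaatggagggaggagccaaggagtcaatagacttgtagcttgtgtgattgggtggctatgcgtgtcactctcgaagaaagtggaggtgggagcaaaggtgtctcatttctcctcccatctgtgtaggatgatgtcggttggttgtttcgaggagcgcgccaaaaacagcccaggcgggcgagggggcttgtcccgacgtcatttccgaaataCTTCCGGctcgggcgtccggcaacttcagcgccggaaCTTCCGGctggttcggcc
Cox7a1 (chr7:30183921-30184220, + strand): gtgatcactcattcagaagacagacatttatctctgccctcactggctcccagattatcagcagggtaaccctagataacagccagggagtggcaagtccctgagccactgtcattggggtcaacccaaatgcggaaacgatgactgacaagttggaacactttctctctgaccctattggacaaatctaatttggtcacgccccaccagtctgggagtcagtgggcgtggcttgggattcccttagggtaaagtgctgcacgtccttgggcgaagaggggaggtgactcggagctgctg
Cox7a2 (chr9:79759804-79760103, - strand): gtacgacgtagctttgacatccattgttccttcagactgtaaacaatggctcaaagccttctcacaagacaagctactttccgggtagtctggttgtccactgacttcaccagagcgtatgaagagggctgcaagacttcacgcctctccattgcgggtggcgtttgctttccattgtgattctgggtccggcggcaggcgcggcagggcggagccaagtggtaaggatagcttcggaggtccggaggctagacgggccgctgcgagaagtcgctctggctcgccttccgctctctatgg
Cox6a1 (chr5:115348909-115349208, - strand): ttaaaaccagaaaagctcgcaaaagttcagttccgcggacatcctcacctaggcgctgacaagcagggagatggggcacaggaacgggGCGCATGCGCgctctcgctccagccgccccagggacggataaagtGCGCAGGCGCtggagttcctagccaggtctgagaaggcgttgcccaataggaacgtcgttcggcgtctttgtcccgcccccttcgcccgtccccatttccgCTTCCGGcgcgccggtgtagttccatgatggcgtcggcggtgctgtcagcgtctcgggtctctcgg

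The window of Cox8b, a muscle isoform, held CAGCTG 2 times, at -19 and 17 from the annotated start, and TATAAA once, at 5. The TATAAA and the CAGCTG at 17 thus lay after that start. That of Cox8a, its widespread partner, held CCGGAAG 2 times, in each case read on the other strand as CTTCCGG. Cox6a1 held the NRF1 motif 2 times and CCGGAAG once. No window was found for Cox6a2, its muscle partner. Neither Cox7a1 nor Cox7a2 held any of the 6 motifs in this window. A match is a run of letters, and binding was not measured.

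Promoter windows of 67 respiratory chain genes were found by gene symbol. The NRF1 motif occurred in 15 of the 67 (22.4%), against 1129 of 17491 windows of protein-coding genes (6.45%) and 1264 of 27025 windows of all genes (4.68%). The Ets motif occurred in 17 (25.4%), against 11.8% of protein-coding and 9.08% of all windows, and the estrogen-related receptor motif in 8 (11.9%), against 4.11% and 4.66%. The other motifs were about as frequent or less frequent than elsewhere. CAGCTG was in 6 windows (8.96%, against 15.3% of protein-coding and 16.2% of all windows), the MEF2 motif in 1 (1.49%, against 3.48% and 3.69%) and TATAAA in 8 (11.9%, against 13.3% and 14.1%). Motifs can overlap in a window, and these shares are descriptions with no test. Windows with the NRF1 motif included those of Sdha, Sdhd, Uqcrc1, Atp5c1, Atp5g2 and Atp5g3, and windows with the Ets motif those of Sdhb, Ndufs3, Ndufs8 and Atp5h.

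The respiratory chain was expressed in the ureter in all 4 samples. Of the 82 genes 73 were above background (89.0%), against 57.9% of all 18193 named genes. Over probe sets, 137 of their 168 were above background, against 40.9% of all 45037. The test was limma's moderated test of the mean distance from the arrays' thresholds, one-sided, with Benjamini-Hochberg adjustment over all probe sets. All 4 genes of complex II, all 9 of complex III, all 17 of ATP synthase and Cycs passed, as did 31 of 34 genes of complex I and 11 of 17 of complex IV. Counted without a test, 75, 78, 78 and 76 of the 82 lay over the threshold in replicates 1 to 4, against 66.9%, 68.5%, 67.4% and 66.0% of all named genes. The count was 73 in each fit that left out 1 replicate.

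The 9 genes that did not pass fall into isoforms of other tissues and into genes of complex I. The first kind are the 6 complex IV genes Cox4i2, Cox6a2, Cox6b2, Cox7a1, Cox7b2 and Cox8b. The second kind includes Ndufs5 and Ndufb4, accessory subunits. Ndufs5 had 7.87, 8.28, 8.28 and 7.69 in replicates 1 to 4, over the threshold in every sample, with an adjusted p of 0.0512 by limma. Ndufb4 had 7.28, 7.10, 6.38 and 9.20, highest in replicate 4. For both, further probe sets carry the symbols of several genes and were not used. Ndufb1, also of complex I, had 5.82, 8.13, 7.98 and 5.98, over the threshold in replicates 2 and 3, and has 1 probe set.

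Complex I takes electrons from NADH. Its core subunits carry the flavin and the iron-sulfur clusters, and 6 of them were measured, all above background. Ndufs1, the largest of them, had 13.00, 12.98, 13.28 and 12.65 in replicates 1 to 4 (mean 12.98 ± 0.26, SD, n = 4 here and throughout). Ndufv1, which binds NADH, had 13.37, 13.48, 13.77 and 13.23 (13.46 ± 0.23). On these probe sets both were highest in replicate 3 and lowest in replicate 4. So were Ndufs7, Ndufs8 and Ndufv2, whose SDs were 0.38, 0.33 and 0.26. Ndufs3 was highest in replicate 4, at 13.48, and had 12.96, 13.12 and 13.43 in replicates 1 to 3. Further probe sets above background of Ndufv1, Ndufs7 and Ndufv2 were lowest in replicate 1, at 12.27, 11.89 and 12.82, against 12.66, 12.03 and 13.51 in replicate 4. A further probe set of Ndufs8 had 10.47, 10.77, 11.00 and 11.30, highest in replicate 4. Others of Ndufv1 and Ndufs8 were again lowest in replicate 4.

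The accessory subunits of complex I, which surround the core, numbered 28, of which 25 were above background. The SDs of these 25 ran between 0.10 and 0.77. Ndufa12 had the largest SD among the respiratory chain genes above background, with 13.52, 12.45, 14.25 and 13.01 (13.31 ± 0.77). Ndufa3 followed with 12.06, 11.37, 12.85 and 11.41 (11.92 ± 0.70). Both were high in replicate 3 and low in replicate 2. Ndufb3 was among the most even, with 13.17, 13.24, 13.39 and 13.37 (13.29 ± 0.10). Ndufa4, which was long listed under complex I and is now placed with complex IV, had 14.18, 14.15, 13.49 and 13.20 and was lower in replicates 3 and 4.

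Complex II oxidises succinate and is also an enzyme of the tricarboxylic acid cycle. Sdha, the flavoprotein, had 14.71, 14.51, 14.99 and 14.43 (14.66 ± 0.25). Sdhb, the iron-sulfur protein, had 13.85, 13.58, 14.01 and 13.71 (13.79 ± 0.19). Sdhc, a membrane anchor, had 11.94, 11.49, 12.05 and 11.92 (11.85 ± 0.25). All these were highest in replicate 3 and, except Sdha, lowest in replicate 2. Sdhd, the other anchor, had 12.28, 12.70, 13.56 and 13.15 (12.92 ± 0.55), again highest in replicate 3 and with the lowest level in replicate 1. Other probe sets above background differed in part. That of Sdhd had 9.92, 10.29, 10.06 and 10.28, and that of Sdha 14.49, 13.84, 14.43 and 14.00. Neither was highest in replicate 3, while that of Sdhc was, at 10.35.

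Complex III carries electrons from ubiquinol to cytochrome c. Cyc1, its cytochrome c1, had 14.09, 13.75, 14.46 and 13.27 (13.89 ± 0.51), and Cycs, the mobile cytochrome c itself, had 14.31, 14.72, 14.85 and 13.53 (14.35 ± 0.60). Both were highest in replicate 3 and lowest in replicate 4. The Rieske iron-sulfur protein Uqcrfs1 had 13.20, 14.14, 13.64 and 13.83 (13.70 ± 0.39). Uqcrc1, a core protein, had 13.22, 13.71, 13.41 and 13.71 (13.51 ± 0.24). These last genes were lowest in replicate 1 and were not raised in replicate 3, where they lay 0.08 and 0.14 log2 units under the mean of the other samples (-0.08 and -0.14). The small subunits Uqcrq and Uqcr11 had the largest deviations of the complex in replicate 3, at 1.08 and 0.95.

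In complex IV the widespread subunits were above background in every sample. Cox4i1, the regulatory subunit in most tissues, had the smallest SD of all 82 genes, with 15.67, 15.63, 15.63 and 15.52 (15.61 ± 0.07). Cox5a had 15.01, 15.30, 15.63 and 14.96 (15.23 ± 0.31) and Cox5b 14.58, 14.43, 14.98 and 14.10 (14.52 ± 0.36). Cox6c, a small structural subunit, had 15.06, 14.83, 14.92 and 14.71 (14.88 ± 0.15). Cox4i1 and Cox6c thus differed little between samples, while Cox5a and Cox5b were highest in replicate 3. Cox7a2l, a relative of Cox7a2 that links complexes III and IV, had 15.81, 15.92, 15.96 and 15.58 (15.82 ± 0.17).

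ATP synthase has a catalytic F1 head and a membrane part. The F1 subunits Atp5a1, Atp5b and Atp5c1 (alpha, beta and gamma) had SDs of 0.31, 0.26 and 0.25. Atp5a1 had 15.66, 15.52, 15.91 and 15.16, highest in replicate 3. Atp5b had 14.31, 14.65, 14.81 and 14.89, lowest in replicate 1, and Atp5c1 had 16.25, 16.02, 16.21 and 15.71, lowest in replicate 4. On these probe sets the F1 subunits did not follow 1 order across the samples, but other probe sets above background differed. For Atp5a1 they had 13.86, 14.11, 14.89 and 14.55, lowest in replicate 1, and 11.52, 10.44, 11.91 and 11.04, lowest in replicate 2. That of Atp5c1 had 9.43, 10.28, 10.36 and 10.08, lowest in replicate 1 like Atp5b. Atp5o and Atp5pb, of the stalk that holds the head, were among the most even genes, with SDs of 0.10 and 0.13 and ranges of 13.43 to 13.65 and 14.79 to 15.03.

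The c subunit of the membrane ring comes from a set of 3 genes that encode the same mature protein, and these parted between samples. Atp5g1 had 11.37, 10.67, 11.89 and 11.39 in replicates 1 to 4, highest in replicate 3 by 0.74 log2 units over the mean of the other samples. Atp5g3 had 15.72, 15.59, 16.35 and 15.14, also highest in replicate 3, by 0.86. Atp5g2 had 13.19, 13.30, 12.95 and 13.33 and was lowest in replicate 3, at -0.33. A second probe set of Atp5g1, not above background, had 8.83, 6.76, 5.35 and 8.34.

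The muscle isoforms of complex IV were high in replicate 3 and close to or under background in the other samples. Cox6a2 had an intensity of 3073 in replicate 3, against 104.5, 176.9 and 176.4 in replicates 1, 2 and 4, and levels of 11.59 against 6.91, 7.59 and 7.59. Its other probe set gave 10.29 in replicate 3, against 4.48, 6.18 and 4.32. Cox6a1, the widespread partner, had 15.60 in replicate 3, against 15.03, 15.03 and 14.75. The other probe set of Cox6a1, also above background, had 11.96 in replicate 3, against 11.43, 12.03 and 12.22, a deviation of only 0.06. Relative to the mean of the other samples, Cox6a2 stood 4.23 log2 units higher in replicate 3 and Cox6a1 0.67, a difference between the isoforms of 3.56. The same quantity was -1.91, -1.01 and -0.64 in replicates 1, 2 and 4, where the mean of the others includes replicate 3. Without replicate 3 it was -0.81, 0.20 and 0.61, so the sign turned in replicates 2 and 4.

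Cox7a1 had an intensity of 532.6 in replicate 3, against 71.8, 100.7 and 49.24 in replicates 1, 2 and 4, and levels of 9.10 against 6.46, 6.87 and 6.03. It was over the threshold in replicate 3 alone, whereas Cox6a2 was also over it in replicates 2 and 4. Cox7a2 had 15.92 in replicate 3, against 15.52, 15.32 and 14.88, and its other probe set was also highest there. The measured deviations in replicate 3 were 2.65 for Cox7a1 and 0.68 for Cox7a2. Since Cox7a1 was not above the threshold in the other samples, its deviation is only bounded. With values under a threshold set to it, Cox7a1 stood at least 1.90 log2 units higher in replicate 3, at least 1.22 more than Cox7a2.

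Cox8b followed the same order, with an intensity of 358.1 in replicate 3, against 11.36, 12.57 and 5.67, and levels of 8.55 against 4.77, 4.84 and 4.44. Cox8a had 11.69 in replicate 3, against 11.0, 10.94 and 11.59. The measured deviations in replicate 3 were 3.86 for Cox8b and 0.51 for Cox8a. Cox8b too was under the threshold in the other samples, and its bound was at least 1.35 log2 units higher in replicate 3, at least 0.84 more than Cox8a. For Cox6a2, under the threshold in replicate 1 alone, the same treatment gave 4.12, which is 3.45 more than Cox6a1. With 1 sample apart in a single group, these differences have no test. The measured differences depend on the pseudocount where the isoform was dim. With pseudocounts of 1 and 64 in place of 16, the Cox8 difference of 3.36 became 4.602 and 2.018, the Cox7a difference of 1.97 became 2.21 and 1.45, and the Cox6a difference of 3.56 became 3.70 and 3.21. Without replicate 3, the differences in replicates 1, 2 and 4 lay between -0.41 and 0.50 for the Cox7a pair and between -0.99 and 0.59 for the Cox8 pair.

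Isoforms known from lung and testis, except Cox8c, were near or under the threshold in every sample. Cox4i2 had 6.97, 7.11, 7.49 and 7.09 in replicates 1 to 4, over the threshold in replicate 2 alone, and deviated by 0.43 in replicate 3, where Cox4i1 deviated by 0.03. Cox6b2, of testis, had 6.66, 6.91, 5.27 and 5.68, under the threshold in all samples. Its partner Cox6b1 had 15.21, 14.60, 15.63 and 14.80 and was highest in replicate 3. Cox7b2, also of testis, had 5.89, 4.25, 5.69 and 4.26 and was under the threshold in all samples.

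Cox8c, known from testis, was above background, with 9.59, 9.15, 10.05 and 10.08 (9.72 ± 0.44) and a level over the threshold in every sample. Its other probe set was not above background, with 8.43, 9.91, 8.51 and 6.79. None of 8 male germ cell genes was above background by limma, and Prm1, a protamine, was over the threshold in replicates 1 and 4 (8.21 and 8.15) and under it in replicates 2 and 3 (6.71 and 6.02). With a stricter background, the chemosensory median plus 3 median absolute deviations, the call of Cox8c was lost.

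**Figure D1:**
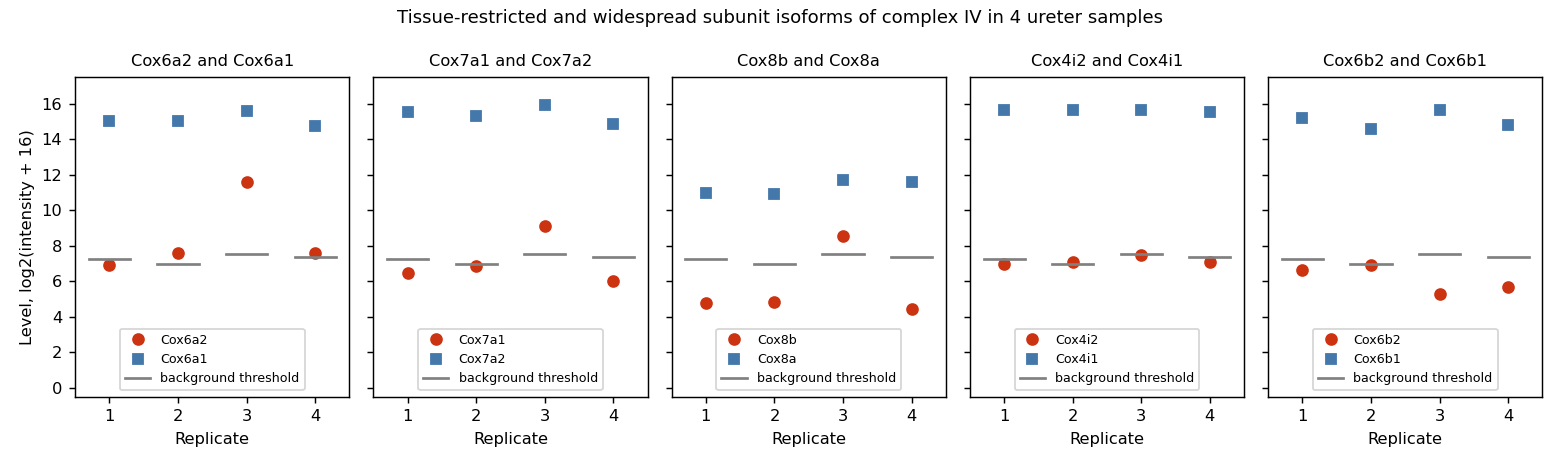
Levels, log2(intensity + 16), of tissue-restricted isoforms (red circles) and their widespread partners (blue squares) in each of the 4 ureter samples, with each array's background threshold as a grey line. Cox6a2, Cox7a1 and Cox8b lie at 11.59, 9.10 and 8.55 in replicate 3 and near or under the threshold elsewhere, while Cox4i2 and Cox6b2 stay near or under it in all samples. Heights of the 2 isoforms in a panel come from different probe sets and are not comparable.

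The respiratory chain as a whole was also higher in replicate 3, by a smaller amount. Of the 73 genes above background 65 were higher in replicate 3 than the mean of the other samples (89.0%), against 47.4% of all named genes above background. The median deviation was 0.46 log2 units, against -0.05 over all named genes above background. Over all 82 genes, 72 were higher and the median was 0.47. Replicate 3 was the highest sample in 52 of the 73 genes, against 27.5% of all named genes above background. Replicates 1, 2 and 4 were highest in 6, 7 and 8, against 23.0%, 25.3% and 24.1%. Deviations over 0.5 log2 units occurred in 34 of the 73 in replicate 3, against 20.2%. In replicates 1, 2 and 4 they occurred in 1, 3 and 0, against 15.1%, 18.3% and 18.8%. In 9 of the 82 genes 1 sample lay apart from the other 3 by Dixon's criterion, against 6.85% of all named genes.

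In the other samples the median deviation was -0.03 in replicate 1, -0.15 in replicate 2 and -0.31 in replicate 4, against 0.03, 0.03 and 0.05 over all named genes. There 30, 22 and 18 of the 73 genes were higher, against 53.3%, 52.3% and 53.4% of all named genes. The deviations of the samples are linked, since each is taken against the mean of the others. Without replicate 3 the medians were 0.11, 0.04 and -0.13 in replicates 1, 2 and 4, against 0.01, 0.01 and 0.0 over all named genes. Then 47, 43 and 24 of the 73 genes were higher, against 51.1%, 50.7% and 50%. The values of replicates 1 and 2 thus changed sign without replicate 3, and that of replicate 4 was smaller. The value of replicate 4 also depended on the probe sets. It was 0.116 without those that can match several transcripts, whether of the same gene or of others. For the 53 genes above background whose level came from a probe set not matching other genes it was -0.24. Replicate 4 also had the lowest 3' to 5' ratios, and a link was not tested.

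Every complex shared the higher level in replicate 3. The median deviation was 0.43 for complex I (28 of 31 genes higher), 0.37 for complex II (4 of 4), 0.71 for complex III (7 of 9), 0.51 for complex IV (10 of 11) and 0.31 for ATP synthase (15 of 17). The central spread of single genes within complex I, 0.25 to 0.60 between quartiles, covers the medians of complexes I, II, IV and ATP synthase. The difference between complexes was not tested, since genes of 1 array are not replicates. Core and accessory subunits of complex I had medians of 0.45 and 0.43. Within ATP synthase, the F1 subunits had 0.30 and the other subunits 0.42.

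**Figure D2:**
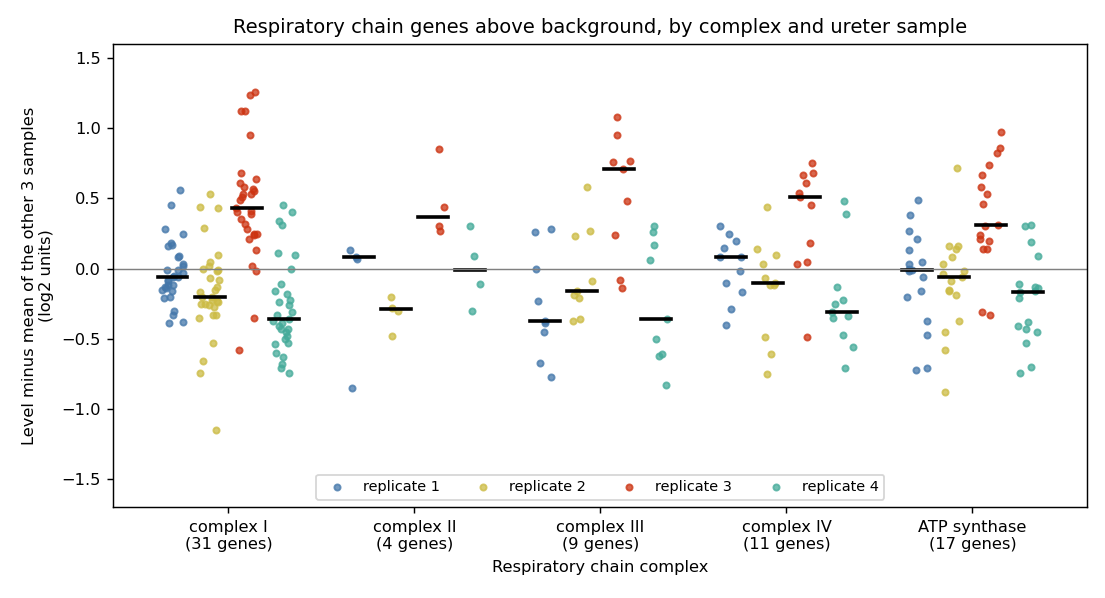
Each point is a respiratory chain gene above background. The vertical axis gives its level in 1 sample minus the mean of the other 3 samples, in log2 units, by complex (Cycs is not drawn), and black bars are medians. Replicate 3 has the highest median in every complex, between 0.31 in ATP synthase and 0.71 in complex III.

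The 8 genes above background that were not higher in replicate 3 were Ndufa4, Ndufa6, Ndufa8, Uqcrc1, Uqcrfs1, Cox7c, Atp5g2 and Atp5l, named after their values were seen. The lowest was Ndufa6 at -0.58, followed by Cox7c at -0.49. The largest deviations were those of Ndufa12 at 1.26, Ndufa3 at 1.24, Ndufv3 and Ndufc1 at 1.12 each, and Uqcrq at 1.08. Ndufa3 is measured by 2 probe sets above background, which gave 1.24 and 1.22. Those of Ndufa12 gave 1.26, 1.18 and 0.43.

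Probe sets are a source of uncertainty in this family, because many of its genes have processed pseudogenes and short messages. For 20 of the 82 genes the level came from a probe set that can match transcripts of other genes. Their median deviation in replicate 3 was 0.50 (19 of 20 higher), and that of the others was 0.43 (46 of 53). Over all 137 probe sets above background for these genes, 120 were higher in replicate 3 (87.6%, against 51.8% of all 18434 probe sets above background), with a median of 0.44. Of 49 genes with several probe sets, 16 had some above background and some not.

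Quantile normalization shifted the median over all probe sets by 0.123, 0.212, -0.241 and -0.0272 in replicates 1 to 4. The respiratory chain median in replicate 3 was then 0.39, with 62 of 73 genes higher, against -0.12 and 42.8% for all named genes. In replicate 4 it was -0.12, against 0.0.

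Spread between samples was small for most of the family. The median SD over 4 samples was 0.33 for the 73 genes above background, against 0.41 for all named genes above background. Without replicate 3 these were 0.25 and 0.33. The comparisons of SDs, and the counts of SDs of 1 or more below, were not matched for level. The median level of the 73 genes was 13.78, 13.61, 13.89 and 13.48 in replicates 1 to 4. None of the 73 had an SD of 1 or more, against 6.9% of all named genes above background. That count leaves out genes that are high in 1 sample only, because they seldom pass the background test. Of all 82 genes 5 had an SD of 1 or more, namely Cox6a2, Cox8b, Cox7a1, Ndufb1 and Ndufb4, against 15.9% of all named genes. Without replicate 3 there were 2 of 82, against 11.8%. None passed the test of spread beyond limma's prior variance for probe sets of like level (F test, Benjamini-Hochberg adjusted), and 0 of 73 had an unadjusted p under 0.05, against 5.42% of all. Of all 18434 probe sets above background 0 passed after adjustment (0.0%) and 1155 had an unadjusted p under 0.05. The closest respiratory chain genes were Ndufa12 and Cycs, with unadjusted p of 0.0613 and 0.0912 by that F test.

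**Figure D3:**
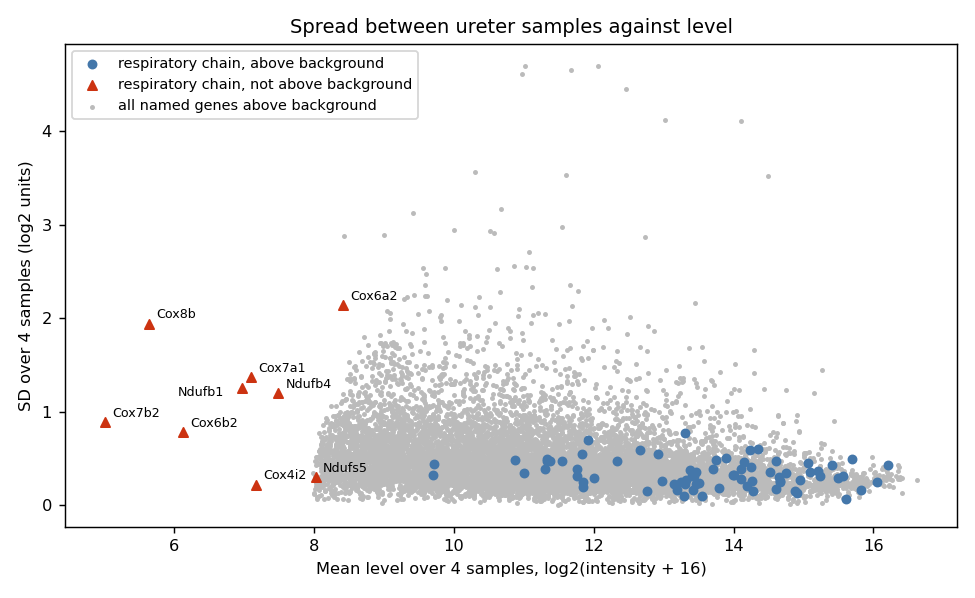
The SD over the 4 samples in log2 units is plotted against the mean level, log2(intensity + 16), for named genes above background (grey), respiratory chain genes above background (blue circles) and the 9 respiratory chain genes not above background (red triangles, named). Blue points stay between 0.07 and 0.77, and Cox6a2, Cox8b and Cox7a1 have SDs of 2.14, 1.94 and 1.37.

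Genes that serve the chain had smaller medians in replicate 3, with no test of the difference. Assembly factors, which build the complexes without being part of them, were above background in 38 of 40 cases, against 57.9% of all named genes. Their median in replicate 3 was 0.28, with 25 of 38 higher. Ndufaf1, Ndufaf2 and Ndufaf3, which help to build complex I, had 9.91, 8.42 and 10.55 in replicate 3, against ranges of 9.53 to 10.19, 7.66 to 8.65 and 9.37 to 9.87 in the other samples. Of these, Ndufaf3 alone was highest in replicate 3.

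All 12 measured tricarboxylic acid cycle genes were above background, and 7 were higher in replicate 3, with a median of 0.17. Cs, citrate synthase, had 14.70, 14.50, 14.90 and 14.10 (14.55 ± 0.34), and Idh3a and Idh3b, of the NAD-dependent isocitrate dehydrogenase, had 13.19 ± 0.20 and 14.29 ± 0.13. All 14 measured genes of fatty acid oxidation and electron transfer were above background, and 12 were higher in replicate 3, with a median of 0.34. Cpt1a, the gatekeeper of fatty acid entry in liver and many tissues, had 11.15, 10.97, 11.48 and 11.49, and Cpt2 was highest in replicate 2 at 12.57. Slc25a20, the carnitine carrier, had 13.08 in replicate 3, against 11.90 to 12.86.

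Of 11 genes for nucleotide and phosphate carriers, porins and related proteins 8 were above background, and their median in replicate 3 was 0.07, with 7 of 8 higher. Slc25a4, the adenine nucleotide translocator that is abundant in muscle and heart, had 14.37, 14.36, 14.26 and 14.04 and was not raised in replicate 3. Slc25a5, the translocator of many dividing and other cells, had 14.99, 15.39, 15.64 and 15.02. Slc25a31, of testis, was under the threshold in all samples (4.88 ± 0.80). Ckmt2, the mitochondrial creatine kinase of striated muscle, named after its values were seen, had 11.77 in replicate 3, against 5.05, 4.40 and 4.64. Its widespread relative Ckmt1 had 12.47, against 12.52, 12.08 and 12.49.

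Regulators of mitochondrial biogenesis were above background in 17 of 19 cases and as a list were not higher in replicate 3, with a median of -0.10 and 8 of 17 higher. Ppargc1a, the coactivator PGC-1 alpha, had 12.25, 12.67, 11.82 and 12.51 and was lowest in replicate 3. Ppargc1b, its relative, was highest there, with 9.64 against 7.45, 7.15 and 7.46, and did not pass the background test. Pprc1 had 11.01 in replicate 3, against 10.36 to 10.80. Gabpa, the DNA-binding subunit of GA-binding protein, and Nrf1, whose motifs were counted above, were named after their values were seen. Gabpa had 12.70, 13.17, 11.56 and 12.87, and Nrf1 had 9.45, 8.51, 9.03 and 8.70.

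Glycolytic genes were above background in 14 of 15 cases, and 13 of 14 were higher in replicate 3, with a median of 0.54. Hk1, Hk2 and Pfkl had 12.82, 12.32 and 10.92 there, against 12.48 to 12.89, 11.29 to 11.62 and 10.25 to 10.54. The muscle forms Eno3 and Pgam2, named after their values were seen, had 13.68 and 13.08 in replicate 3, against 9.01 to 9.50 and 4.56 to 5.38. Contractile smooth muscle genes had a different order, with all 9 above background highest in replicate 2 (median 1.17) and all 9 lowest in replicate 1 (median -1.11), and a median of 0.23 in replicate 3.

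**Figure D4:**
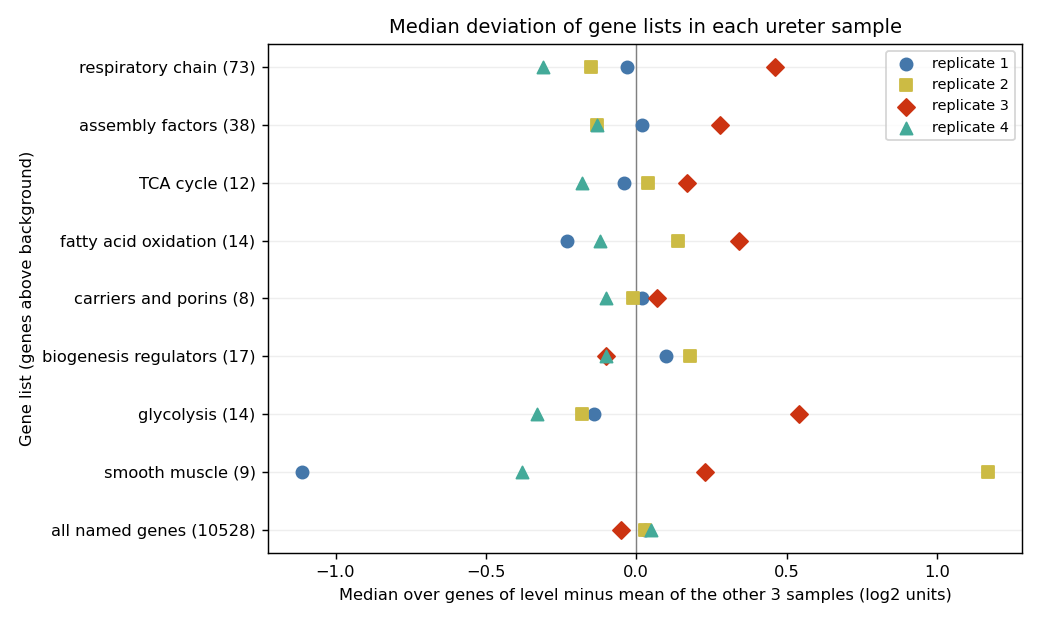
For each gene list the median over its genes above background of the level in 1 sample minus the mean of the other 3 samples is shown on the horizontal axis in log2 units. The respiratory chain and glycolysis have their highest medians in replicate 3 (0.46 and 0.54), the biogenesis regulators and smooth muscle genes in replicate 2 (0.18 and 1.17), and all named genes lie between -0.05 and 0.05.

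Markers of skeletal muscle were high in the same sample as the muscle isoforms and the respiratory chain. Replicate 3 had 19 of 20 skeletal muscle genes over background, while replicates 1, 2 and 4 had 3, 6 and 6. Their summed intensity was 292300 in replicate 3, against 4727, 2320 and 5648. Myh4 and Myh1, fast myosin heavy chains, had 16.39 and 15.71 there, against 4.14 to 4.52 and 4.16 to 6.49. Slow-fibre genes had another order. Tnni1, the slow troponin I, stayed under the threshold in all samples, and Myh7, the slow myosin heavy chain, had 11.73 in replicate 3, against 11.71, 9.58 and 12.03. Tnnt1, the slow troponin T, had 8.10, against 6.64, 8.42 and 5.99. The part of muscle RNA in the higher respiratory chain level of replicate 3 was not tested. In whole tissue, more RNA of these nuclear genes per cell cannot be told apart from more cells rich in mitochondria.

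Other cell types, whether or not they use these isoforms, were looked for by their own markers. Over the threshold were 3, 4, 3 and 2 of 8 heart genes in replicates 1 to 4, against the 66.0% to 68.5% of all named genes given above, and Myh6, Nppa, Myl7 and Tnni3 were under it in all samples. Actc1, an actin of heart that is also made in skeletal muscle, had 13.14 in replicate 3, against 6.91, 7.42 and 6.86. Ucp1, the uncoupling protein of brown fat, was under the threshold in all samples (4.86 ± 0.29), as were Cidea and Zic1. Of the 6 genes of the brown fat list, which include Cox8b and Ppargc1a, 3 were over it in replicate 3 and 2, 1 and 1 in replicates 1, 2 and 4, with Elovl3 at 8.02 in replicate 3 and 8.73 in replicate 1. Of 5 fat cell genes 1, 2, 3 and 2 were over the threshold in replicates 1 to 4, against the same 66.0% to 68.5%. Fabp4, of fat cells and capillaries, had 14.93 in replicate 3, against 7.06, 7.95 and 8.33. Lpl had 12.54 there, against 9.04 to 10.96. Adipoq was over the threshold in replicate 3 alone, at 7.77, and Lep and Cidec were under it in all samples. Among 6 male reproductive tract genes, Pbsn of prostate had 15.41 in replicate 3, against 9.10, 9.42 and 8.80, while Svs2, Svs4, Svs5, Svs6 and Pate4 were highest in replicate 2. The summed intensity of the list was 44110 in replicate 3, against 7209, 69700 and 680.0. Of 6 liver genes all exceeded the threshold in replicates 1 and 3, and 1 did in replicate 2 and in replicate 4. The urothelial list also had its highest median in replicate 3, at 0.43, with 6 of 8 genes above background higher. Upk3a, Upk3b and Krt20 parted most and had 14.91, 14.34 and 11.69 there, against 4.55 to 7.03, 10.44 to 11.73 and 6.07 to 7.09. Upk1a, Upk1b, Upk2 and Krt7 were also highest there, but with deviations of only 1.01, 0.96, 0.42 and 0.44. Foxa1, Krt5 and Trp63 were not highest there, with deviations of 0.06, -0.14 and -0.16. All 10 urothelial genes were over the threshold in replicate 3, and 8 in each other sample, with a summed intensity of 254800 in replicate 3, against 164000, 194600 and 150200. The part of these cell types in the respiratory chain result was not tested.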

How the data were processed

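The deposited values are linear intensities, 1 for each probe set on each array, made from biotin-labelled RNA amplified in 2 rounds, per the labels' protocols. The submitters' processing notes name GCOS, whose algorithm is not given in the sources used here. With the top and bottom 2% of values trimmed, every array averaged 1500.0, so scaling had been done before deposit and none was added. Of 45101 probe sets 64 are controls and were dropped. Gene names came from the platform annotation, and all 82 genes were found by identifier in RefSeq (GRCm38.p6), which changed 0 symbols. The 9 probe sets with several symbols of which 1 fitted the name rule were not used. Tests used limma 3.58.1 in R 4.3.3 with a trended, robust prior and a threshold of 0.05 on adjusted p, were tested on simulated data, and the spread test had 3 and 5.249 degrees of freedom. One probe set above background was enough to call a gene. Named with values were the isoform pairs, c subunit genes, core subunits, every gene not above background, the 10 genes with the largest and 5 with the smallest SD, the first 3 measured genes of each list of mitochondrial, glycolytic or regulatory genes, and, chosen with their values known, genes so marked in the text, those with the extreme deviations and the cell type markers beside a result. The genes and lists were chosen with earlier results of these data known. Alternatives tried were other pseudocounts (1 and 64), quantile normalization, other backgrounds, other handling of probe sets, a filter on low values, another prior, other summaries and leaving out each replicate. The number of arrays limits the precision.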

Additional observations from a re-analysis of the deposited data

Results flagged for a closer look

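In 9 of the 82 respiratory chain genes 1 sample lay far from the other 3, with a gap to its neighbour above Dixon's critical value for 4 samples. Chance alone flags about 1 in 20 genes, and 6.85% of all named genes met the criterion. In 8 of the 9 the sample apart was replicate 3, on the high side. These were Cox6a2 at 11.59 and Cox8b at 8.55, the muscle isoforms, Ndufa1 at 15.32, Ndufb6 at 13.89 and Ndufb7 at 13.72 of complex I, Uqcr11 at 12.27 of complex III, and Atp5h at 15.35 and Atp5md at 11.61 of ATP synthase. The remaining gene was Uqcrh, the hinge protein of complex III, which was low in replicate 1 at 11.18, against 11.93, 11.94 and 11.99. The share of all named genes in which replicate 3 was the sample apart was not counted. Replicate 3 was also the array least like the others. Its Pearson correlations of log2 levels with them were 0.8905 to 0.909, against 0.9269 to 0.9356 among the others.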

How the results depend on the processing

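The count of respiratory chain genes above background stayed between 71 and 74 of 82 under the other pseudocounts, scaling, backgrounds, handling of several probe sets and with each replicate left out. It was 51 of 66 measured genes without probe sets shared between transcripts, whether of the same gene or of others. After the filter on low values it was 74 of 76. The spread test passed 0 respiratory chain genes under every alternative, and over all probe sets it passed 7 without replicate 2, 4 without replicate 3 and 0 under the others. The median deviation in replicate 3 kept its sign under all alternatives and stayed between 0.389 and 0.50 with another replicate left out. It fell under that range, to 0.32, without probe sets shared between transcripts. With the mean over all probe sets of a gene it was also under that range. Without such shared probe sets, the median was -0.254 in replicate 1 and 0.116 in replicate 4. In replicate 4 it was -0.119 after quantile normalization and -0.108 with the mean over all probe sets of a gene. With replicates left out it ran from -0.353 to -0.126 in replicate 4 and from -0.247 to 0.038 in replicate 2. The mean distance of Ndufa12 from background was -2.57 without probe sets shared between transcripts, where only a dim probe set of it is left. The calls of Atp5g1, Cox5b, Cox7c, Ndufb2 and Uqcrq were lost there, and those of Cox7c and Cox8c at the median plus 3 median absolute deviations. Ndufs5 passed with a pseudocount of 1, with the mean over all probe sets of a gene and after the filter. Apart from Ndufa12, the cause was not tested. Setting values under the threshold to it, an alternative chosen after seeing the data, gave a Cox8 isoform difference of 0.842 in replicate 3. With replicates left out, the isoform differences in replicate 3 were 3.291 to 3.766 for Cox6a, 1.835 to 2.138 for Cox7a and 3.027 to 3.555 for Cox8. No paired analysis was possible because the samples form 1 group. Dim probe sets are limited by signal over background, as for Cox7a1 and Cox8b outside replicate 3.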
